A study of Mus musculus with 39 samples.

Results

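Pim1, Pim2, Pim3, Bmi1 and Gfi1 are genes known from mouse work as partners of Myc in lymphoma. They were chosen by name from that background. All 9 of their probe sets were used, out of 45101 on the array, and the 5 genes were set beside 18194 measured genes. The level of a gene was that of its probe set with the highest mean. RNA came from 39 lymphomas of Eµ-myc mice, 1 array per tumour, all in 1 group with no normal tissue, treatment or outcome. In Eµ-myc mice the heavy chain enhancer Eµ drives Myc in B lineage cells, so the transgene was present in every tumour. Nothing in the labels says whether any mouse gave more than 1 tumour, and p-values then measure only the spread between these samples. Tumours are named by the numbers in their labels.

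Pim1, Pim2 and Pim3 encode serine/threonine kinases that are active as soon as they are made. Their transcripts are induced by cytokine receptors through JAK and STAT proteins, and the kinases phosphorylate regulators of survival, translation and the cell cycle. Bmi1 encodes a RING finger subunit of Polycomb repressive complex 1 (PRC1), which holds the Cdkn2a locus silent and so limits the Arf and p16Ink4a brakes on Myc. Gfi1 encodes a zinc finger repressor that recruits the Lsd1 (Kdm1a), CoREST and histone deacetylase proteins and takes part in lymphoid and granulocyte development. Pim1, Bmi1 and Gfi1 are classic sites of retroviral insertion in lymphomas of Myc transgenic mice, which made them known as partners of Myc.

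Because Myc and its partner Max bind the E-box CACGTG, the upstream sequences of the members were read for that motif. RefSeq promoter windows on GRCm38.p6 (250 bases before to 50 after a start site) were found for all 5 genes. The motif reads the same on both strands and overlaps no other motif searched. It was in the windows of Bmi1, 215 bases before the start, and of the second Pim1 start, 58 bases before it. It was not in those of the first Pim1 start, Pim2, Pim3 or either Gfi1 start, and 7.15% of all 32851 windows of that length held it. The sequences, on the + strand with the E-box in capitals, are the 250 bases before the Bmi1 start (chr2:18676768-18677017) and the stretch around the match at the second Pim1 start (chr17:29493000-29493060). The 250 bases before the first Pim1 start (chr17:29490535-29490784) and before the Pim3 start (chr15:88861944-88862193) are given beside them, because Pim1 and Pim3 moved most closely with Myc and in opposite directions.
Bmi1: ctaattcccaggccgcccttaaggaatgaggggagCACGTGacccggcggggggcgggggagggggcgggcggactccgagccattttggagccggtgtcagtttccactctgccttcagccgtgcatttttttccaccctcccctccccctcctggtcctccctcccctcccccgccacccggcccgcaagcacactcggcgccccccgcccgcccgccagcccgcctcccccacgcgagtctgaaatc
Pim1 second start: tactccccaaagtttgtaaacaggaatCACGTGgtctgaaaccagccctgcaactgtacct
Pim1 first start: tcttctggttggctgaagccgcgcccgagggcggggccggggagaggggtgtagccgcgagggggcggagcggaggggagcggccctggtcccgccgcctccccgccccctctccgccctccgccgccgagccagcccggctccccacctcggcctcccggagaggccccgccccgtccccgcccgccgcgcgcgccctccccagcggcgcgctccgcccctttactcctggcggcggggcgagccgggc
Pim3: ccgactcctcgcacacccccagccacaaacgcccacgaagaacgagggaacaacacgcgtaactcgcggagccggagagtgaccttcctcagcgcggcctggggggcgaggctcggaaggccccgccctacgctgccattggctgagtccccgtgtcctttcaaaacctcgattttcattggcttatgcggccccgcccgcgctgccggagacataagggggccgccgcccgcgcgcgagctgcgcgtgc
The window of the first Pim1 start was 81.3% G and C, above 99.3% of the windows, whose median was 52.7%. That of Pim3 was 69% G and C. A match describes these letters only, and binding was not measured.

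Pairs of arrays correlated with r between 0.889 and 0.991, array medians ran from 5.61 to 5.78 (log2), and no member correlated with the hybridisation controls, the poly-A controls or the 3' minus 5' control difference with an r of more than 0.274 in size. The poly-A controls were far lowest in tumour 39, at 6.83, with the next lowest at 8.85 in tumour 6. By rank, rho was -0.334 for Pim3 with the poly-A controls and -0.305 for Pim2 with the 3' minus 5' difference. The array median gave r between -0.0836 and 0.226 with the members, but without the 7 tumours named next 0.451 with Pim1 and 0.480 with Pim2. With each array centred on its median, 6391 genes were called along Pim1 against 6468 without centring. Tumours 2, 5, 6, 8, 19, 23 and 26 stood apart, 6 of them by a pan B cell score below -1 (the mean log2 deviation of 11 B lineage genes such as Cd79a and Pax5, which are low where B lineage RNA is scarce) and tumour 2 by a Myc level of 8.19, the 1 level below 10. Results are therefore given with and without these 7. In bulk tissue, fewer cells of a type and less RNA per cell cannot be told apart.

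Gfi1 varied most among the 5 genes. Its level averaged 8.12 ± 2.26 (log2, SD, n = 39), with a lowest value of 2.87 in tumour 6, a median of 9.13 and a highest value of 10.46 in tumour 25. The range was 191-fold, and the SD lay above that of 99.8% of all genes. Tumours 5, 6, 8, 13, 19, 23, 26 and 32 formed a separate low cluster, whose highest level was 5.94 (tumour 32) against 7.21 in the lowest of the other 31.

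Pim2 came next, with a mean of 8.27 ± 1.06 and a spread above that of 93.7% of genes. It ran from 7.10 in tumour 21 over a median of 7.96 to 11.13 in tumour 19, a 16.3-fold range. Tumours 1, 6, 8, 12, 19, 23 and 26 formed a separate high cluster, with a lowest level of 9.45 against 8.84 in the highest of the other 32. Tumours 6, 8, 19, 23 and 26 were thus in both the high Pim2 and the low Gfi1 cluster, and all 5 had a low pan B cell score. Their macrophage scores were 1.34, 0.92, 0.10, 1.34 and 0.45, in a range over all tumours from -1.05 to 1.64. Their T cell scores were -0.93, -1.14, 1.03, -0.71 and 1.28 (range -1.35 to 2.89). Their plasmacytoid dendritic cell scores were -0.53, -0.19, 0.79, -0.35 and 0.77, in a range from -0.59 to 2.65. In the low Gfi1 tumours 5 and 32 that score was 1.63 and 2.65, and it was not among the covariates used below. The part of other cells in these levels was not tested.

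Pim1 averaged 9.21 ± 0.68 and ran from 8.19 in tumour 14 over a median of 9.01 to 10.72 in tumour 2, a 5.78-fold range. Tumours 6 (10.54) and 18 (10.49) followed, and no separate cluster was found. Its other probe set correlated with this one with r = 0.894.

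Pim3 was the steadiest member, with a mean of 10.04 ± 0.37 and a 3.26-fold range. Its level was 8.93 in tumour 8, 9.27 in tumour 6 and 9.42 in tumour 2, around a median of 10.06, and reached 10.64 in tumour 22. Tumours 2 and 6 were also the 2 with the highest Pim1, and tumour 8 had the fifth highest, at 10.28. The SD lay above that of 57.2% of genes, near the middle. Of its other probe sets, 1 correlated with the level used with r = 0.925 and the other, dim and with little spread, with r = 0.265.

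Bmi1 averaged 9.90 ± 0.66, with a lowest value of 8.67 in tumour 13, a median of 9.86 and a highest value of 12.21 in tumour 11. Tumour 37 followed at 11.23 and tumour 9 at 10.77. The second Bmi1 probe set (r = 0.958) gave 11.79 in tumour 11 and 10.64 in tumour 37, so both probe sets singled out the same pair.

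**Figure D1:**
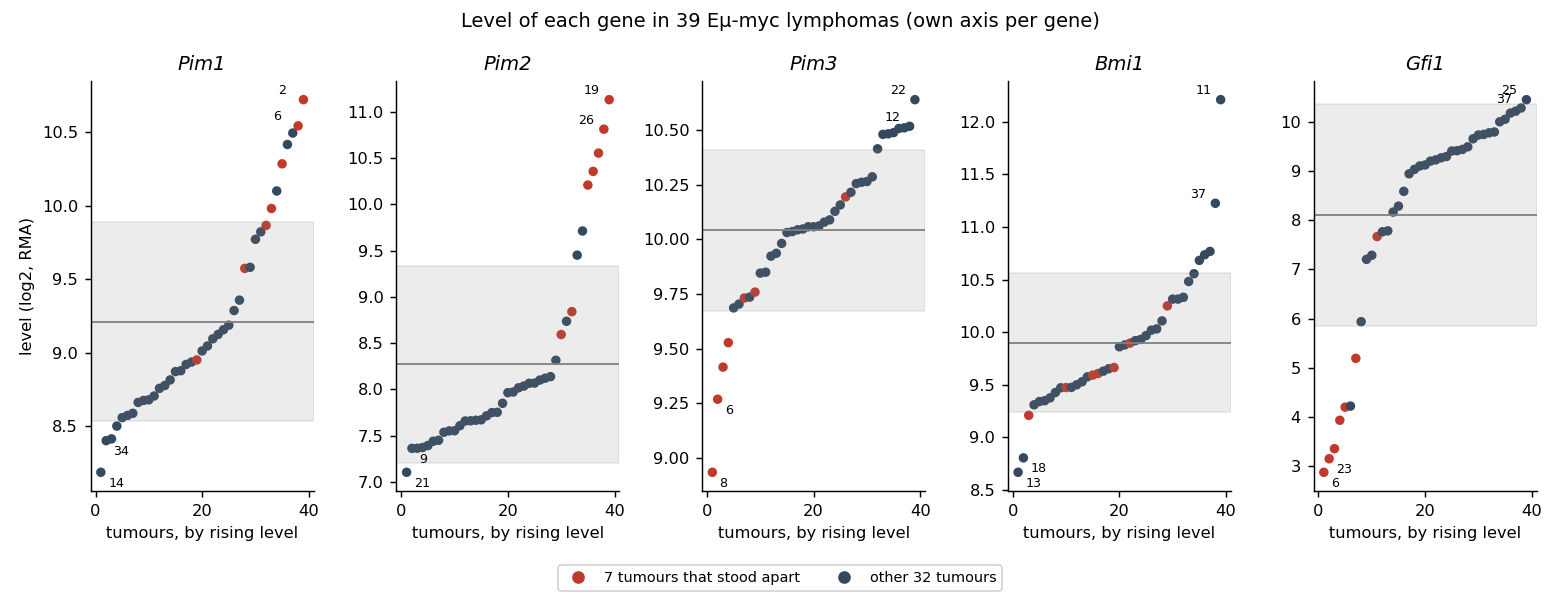
Level of each gene (log2, vertical axis, own scale per gene) in the 39 tumours, ordered along the horizontal axis by rising level. Red points are the 7 tumours that stood apart and dark points the other 32, the line is the mean and the band 1 SD to either side, and numbers name the extreme tumours. Gfi1 breaks off below 7.21 and Pim2 above 8.84, while tumours 11 and 37 lead Bmi1.

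The first question was whether the members followed Myc itself. Pim1 was lower and Pim3 higher where Myc was higher. Pim1 with Myc gave r = -0.747 and rho = -0.782 (permutation p = 1e-05 for each, the smallest the draws can give, adjusted p = 0.00022, n = 39), and r = -0.742 without tumours 2 and 6. In tumour 2, the tumour with the highest Pim1, Myc was lowest at 8.19. In tumour 14, lowest in Pim1, Myc was at 12.39, the fourth highest level. Leaving out the 7 tumours kept r at -0.724 (adjusted p = 0.00066, n = 32), although 1 of the 7 had been picked by its Myc level.

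Pim3 with Myc gave r = 0.650 and rho = 0.532 (permutation p = 3e-05 and 0.00056, adjusted p = 0.00033 and 0.0062, n = 39), and r = 0.466 (adjusted p = 0.034) without the 7, where rho (0.298, adjusted p = 0.27) did not pass. For Gfi1, r with Myc was 0.525 and rho 0.505 in the 31 tumours of its larger cluster (adjusted p = 0.007 and 0.026). Of the 7, only tumour 2 was in that cluster. Without it r was 0.521 (adjusted p = 0.027, n = 30) but rho, at 0.462, did not pass (adjusted p = 0.081). Pim2 with Myc had r = -0.429 in 32 tumours and did not pass (adjusted p = 0.052). Bmi1 with Myc gave r = 0.102 (adjusted p = 0.61).

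Among the other pairs of members, Pim1 was lower where Gfi1 was higher (r = -0.656, rho = -0.498, adjusted p = 0.00081 and 0.026, n = 31). Of the 7 tumours, only tumour 2 was among those 31. Without it r was -0.609 (adjusted p = 0.0078, n = 30), while rho, at -0.456, did not pass (adjusted p = 0.081). Pim1 with Pim3 gave r = -0.538 over all tumours (adjusted p = 0.0021, rho = -0.385 with an adjusted p of 0.06). That pair rested on a few tumours, since r was -0.290 without tumours 2, 6 and 8 (adjusted p = 0.193) and -0.150 without the 7 (adjusted p = 0.572). Pim1 with Pim2 gave r = 0.391 in 32 tumours (adjusted p = 0.065). Pairs with Bmi1 ran from -0.324 with Pim2 to 0.218 with Pim3, and none passed.

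With the scores of T cells, macrophages, erythroid cells and fibroblasts held constant, Pim3 with Myc passed for r (0.578, adjusted p = 0.0026) and not for rho (0.449, adjusted p = 0.088). Pim1 with Myc (r = -0.409, adjusted p = 0.0697) and Pim1 with Gfi1 (r = -0.317, adjusted p = 0.298) did not, and Gfi1 with Myc gave -0.00511 (adjusted p = 0.978). In all, 22 relations were tested, 12 of them within the larger cluster of a measure, and 7 passed for r, 4 positive and 3 negative.

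**Figure D2:**
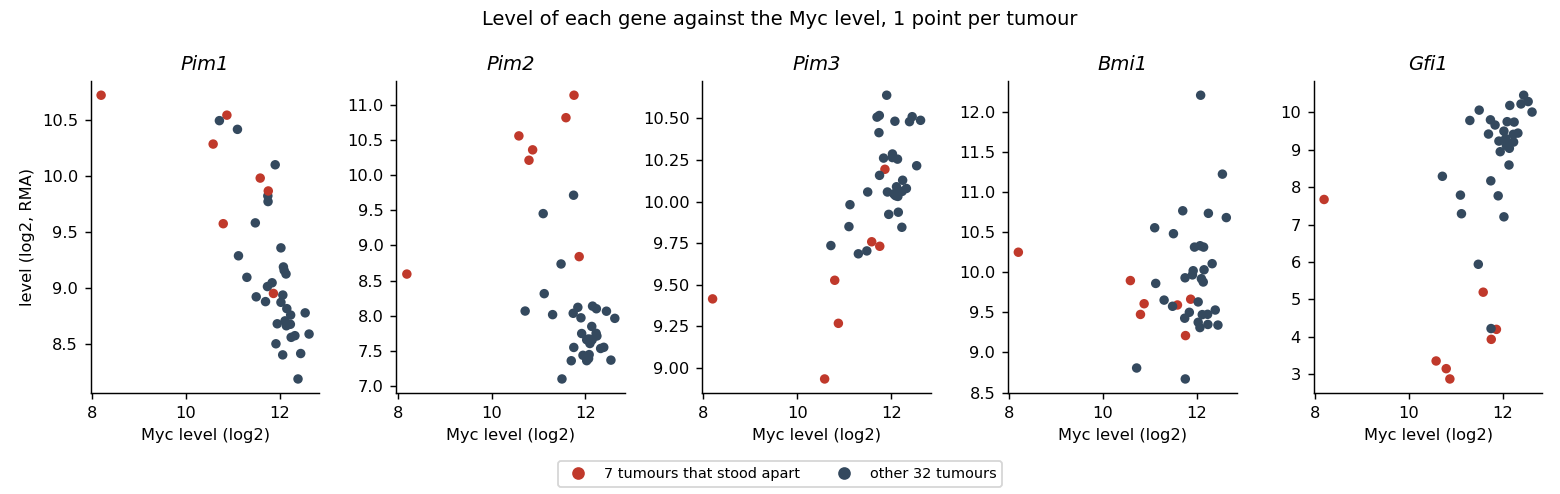
Level of each gene (log2, vertical axis) against the Myc level (log2, horizontal axis), 1 point per tumour, with the 7 tumours that stood apart in red. Pim1 slopes down (r = -0.747), Pim3 slopes up (r = 0.650) and Bmi1 shows little slope (r = 0.102), and tumour 2 is the point at the far left.

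Each gene was then fitted on the level of a member with limma, and slopes are in log2 per SD of that member. Along Pim1, most NF-kB target and cytokine receptor genes rose and most cell cycle and ribosome biogenesis genes fell, but hardly any of these calls held with other-cell or G2/M scores as covariates. With a Benjamini-Hochberg adjusted p under 0.05, 3159 genes (17.4%) rose and 3309 (18.2%) fell. Without the 7 tumours 7.2% rose and 6.99% fell. All 16 NF-kB targets rose, with a median slope of 0.45 against -0.01 over all genes, and 12 of 16 without the 7. Among them, Bcl3, an NF-kB cofactor, rose by 1.13 ± 0.12 (SE, adjusted p = 4.36e-08), Cd83, an activation marker, by 1.14 ± 0.14, and Tnfaip3, the feedback inhibitor A20, by 0.87 ± 0.12.

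Most cytokine receptor, JAK and STAT genes rose with Pim1 over all tumours, but 0 were called with the G2/M or the cell scores as covariates. Of 15 cytokine receptor, JAK and STAT genes 12 rose and 1 fell (8 and 1 without the 7). Csf2rb, the shared beta chain of the IL-3 and GM-CSF receptors, rose by 1.15 ± 0.16 (adjusted p = 1.15e-06, without the 7 by 0.80 ± 0.16), Il6ra by 0.87 ± 0.17 and Jak2 by 0.61 ± 0.11. Of 12 STAT5 and STAT3 targets 6 rose and 1 fell, with Bcl6, the germinal centre repressor, at 1.20 ± 0.18 and Socs2, a feedback inhibitor of JAK signalling, at -0.93 ± 0.19. The substrates of the kinases did not share a direction: of 21, 6 rose and 5 fell, among them Nfatc1, a calcium-regulated transcription factor (0.50 ± 0.06), Cdkn1a, the p21 cell cycle inhibitor (0.58 ± 0.10), and Cdc25c, a mitotic phosphatase (-0.47 ± 0.08).

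All 19 G2/M genes fell along Pim1 (16 without the 7), Ccna2 (cyclin A2) by 0.56 ± 0.09. Of 22 Myc target and ribosome biogenesis genes 20 fell (14 without the 7), Cad, an enzyme of pyrimidine synthesis, by 0.51 ± 0.06. Among the largest single slopes were those of Ltb, the membrane anchor of lymphotoxin (1.60 ± 0.21), Ncf1, a subunit of the phagocyte oxidase (1.57 ± 0.21), and Gpr18, a lymphocyte G protein-coupled receptor (1.52 ± 0.15), among the genes that rose. Vpreb3, a pre-B cell gene (-1.56 ± 0.27), and Gfi1 itself (-1.44 ± 0.28, adjusted p = 7.53e-05) had the largest slopes among the genes that fell. Prdm1, the plasma cell regulator Blimp-1, rose by 1.11 ± 0.13 (without the 7 by 0.97 ± 0.14). Cdkn2b, the p15 cell cycle inhibitor, rose by 0.33 ± 0.06 (adjusted p = 1.87e-05, without the 7 by 0.28 ± 0.06). Pim2 rose by 0.69 ± 0.13 (adjusted p = 6.75e-05), and by 0.31 ± 0.08 without the 7 (adjusted p = 0.0128). Both of these fits span the separate Pim2 clusters.

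Markers of T cells, macrophages and fibroblasts moved with Pim1 as well, while 0 of 12 neutrophil and 0 of 5 erythroid genes were called. Of 12 T cell genes 8 rose (8 without the 7), of 16 macrophage genes 11 rose and 1 fell (4 and 0), and of 12 fibroblast genes 5 rose. With those scores and the erythroid score as covariates 8 genes were called in all, and with the G2/M score as a covariate 24. No NF-kB target, cytokine receptor, STAT target, Myc target or G2/M gene passed with the cell scores. With the G2/M score 1 NF-kB target passed, and 0 genes of the cytokine receptor, STAT target and Myc target lists. Nfatc1 (0.56 ± 0.09, adjusted p = 0.00424) and Gpr18 (1.12 ± 0.22, adjusted p = 0.0441) passed with the cell scores, and both also passed with the G2/M score.

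Along Pim2, 2963 genes (16.3%) rose and 2833 (15.6%) fell, and without the 7 tumours 5.46% rose and 5.62% fell. The fits along Pim1, Pim2, Pim3 and Gfi1 share tumours and these genes correlate, so their counts are not independent of each other. Of the NF-kB targets 10 of 16 rose (10 without the 7), Ccl3, a chemokine gene, by 1.39 ± 0.18 and Bcl3 by 1.15 ± 0.12. With the G2/M score as a covariate 3 NF-kB targets rose, and 2 with the cell scores. Of the 19 G2/M genes 18 fell (13 without the 7), and 0 with the cell scores. Of 11 pan B cell genes 6 fell and of 16 macrophage genes 10 rose and 1 fell, against 2 fallen and 6 risen without the 7. The score of the 11 pan B cell genes, Pou2af1 among them, picked 6 of the 7. Leaving those out thus narrows the spread of these genes by design. Of 9 plasmacytoid dendritic cell genes 3 rose and 1 fell (4 and 0 without the 7). Ebi3, a subunit of the cytokines IL-27 and IL-35 (1.85 ± 0.15), and Nfkbiz, a nuclear inhibitor of NF-kB (1.73 ± 0.11), rose most, and by 0.62 ± 0.12 and 0.52 ± 0.10 without the 7. Pou2af1, a B cell coactivator, fell by 2.55 ± 0.27 and Gfi1 by 1.73 ± 0.23, but without the 7 their slopes were -0.17 ± 0.07 (adjusted p = 0.102) and -0.37 ± 0.22 (adjusted p = 0.304). Akap12, a kinase scaffold gene, fell by 1.67 ± 0.17, and it fell by 1.12 ± 0.16 without the 7.

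Along Pim3 the picture was the opposite, with 2799 genes (15.4%) rising and 2925 (16.1%) falling. Of the 22 Myc target and ribosome biogenesis genes 21 rose, Nolc1, a nucleolar chaperone gene, by 0.52 ± 0.08 and Srm, an enzyme of polyamine synthesis, by 0.44 ± 0.08. Of the G2/M genes 18 of 19 rose, and of the NF-kB targets 10 of 16 fell. Almost none of these calls held without the 7 tumours. Without them 5 genes rose (0.0275%) and 0 fell (0%), and 1664 had an unadjusted p under 0.05. These were Calml4, Chp2, Polr2f, Rpp14 and Timm23, of which Polr2f is a shared subunit of the RNA polymerases, Rpp14 a subunit of RNase P and Timm23 a channel of mitochondrial protein import. No Myc target and no G2/M gene was among them. The median slope of the Myc target list was 0.28 over all tumours and 0.09 without the 7, where that of all genes was -0.0015. For the G2/M list it was 0.42 and 0.03. Without tumours 2, 6 and 8 alone, 289 genes were called.

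Along Gfi1, most pan B cell genes rose, and a majority of the cytokine receptor and NF-kB target genes fell. In all 2869 genes (15.8%) rose and 3113 (17.1%) fell, and without the 7 tumours 2.76% rose and 2.78% fell. Of 11 pan B cell genes 8 rose (2 without the 7, 7 with either the G2/M or the cell scores as covariates), Cd79a, a chain of the B cell receptor, by 1.48 ± 0.15 and Pax5, the B lineage regulator, by 0.68 ± 0.07. Without the 7, the slope of Pax5 was 0.29 ± 0.07 (adjusted p = 0.0205) and that of Cd79a 0.13 ± 0.09 (adjusted p = 0.444). The other B lineage lists were mixed. Of 16 precursor B cell genes 5 rose and 1 fell, and of 12 mature B cell genes 4 rose and 1 fell. Without the 7 it was 1 and 1 of the precursor and 0 and 1 of the mature genes. With the G2/M score 3 precursor genes rose and 0 fell, and 5 mature genes rose and 1 fell. With the cell scores it was 3 and 0, and 7 and 1. Of 8 germinal centre genes 0 rose and 2 fell, and of 9 plasma cell genes 2 rose and 4 fell. Of the 16 NF-kB targets 9 fell (2 without the 7), and with the G2/M score 3 fell and 1 rose. Trib2, a pseudokinase gene, had the highest correlation with Gfi1 over all 39 tumours. It rose by 1.84 ± 0.12 (adjusted p = 3.97e-14), by 0.89 ± 0.12 without the 7 (adjusted p = 3.1e-05), and correlated with Gfi1 with r = 0.927 over 39 tumours and 0.802 over 32, where Apool, a mitochondrial gene, was at 0.805 (0.316 over 39). The 39 and the 32 tumours both span the separate Gfi1 clusters.

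Genes that work with Gfi1 and genes that it is known to repress moved only in some fits. Of 12 cofactor genes 7 rose and 1 fell, where 15.8% of all genes rose. Rcor2, a CoREST gene, rose by 0.33 ± 0.07 and Kdm1a, the Lsd1 demethylase, by 0.20 ± 0.04. Of 18 known targets 1 rose and 5 fell, where 17.1% of all genes fell. With the G2/M score or the cell scores as covariates 1 cofactor rose, and 2 targets rose and 2 fell. Of all 18193 genes, 1127 rose and 1632 fell with the G2/M score, and 1238 and 1968 with the cell scores, so these counts were small beside the background. In the fit without covariates several single targets moved. Cebpa, a myeloid regulator, fell by 0.87 ± 0.12 (adjusted p = 6.88e-07), Spi1, which encodes PU.1, by 0.65 ± 0.08, Id2, an inhibitor of E proteins, by 0.59 ± 0.14 and Cdkn1a by 0.48 ± 0.12, while Ets1, a lymphoid factor, rose by 0.56 ± 0.08. None of these 5 passed without the 7, where Cebpa had a slope of -0.10 ± 0.09 and Spi1 of -0.10 ± 0.05, and 0 cofactors rose and 2 targets fell. Of 15 cytokine receptor, JAK and STAT genes 9 fell (6 without the 7), Csf2rb by 1.13 ± 0.16 (slope -0.79 ± 0.16 without the 7) and Jak2 by 0.52 ± 0.12 (slope -0.61 ± 0.11 without the 7).

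Some T cell and macrophage genes moved against Gfi1: of 12 T cell genes 4 fell (8 without the 7), and of 16 macrophage genes 9 fell and 3 rose (1 and 0). With the G2/M score 2 T cell genes fell, and 2 macrophage genes rose and 2 fell. Of 12 fibroblast genes 2 fell, where 17.1% of all genes fell, and 0 of 12 neutrophil and 0 of 5 erythroid genes were called. Itgam, the CD11b integrin of myeloid cells, fell by 1.71 ± 0.19 and without the 7 it fell by 0.71 ± 0.12. Prdm1 had a slope of -0.87 ± 0.17 (adjusted p = 0.000127), and -0.75 ± 0.17 without the 7.

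**Figure D3:**
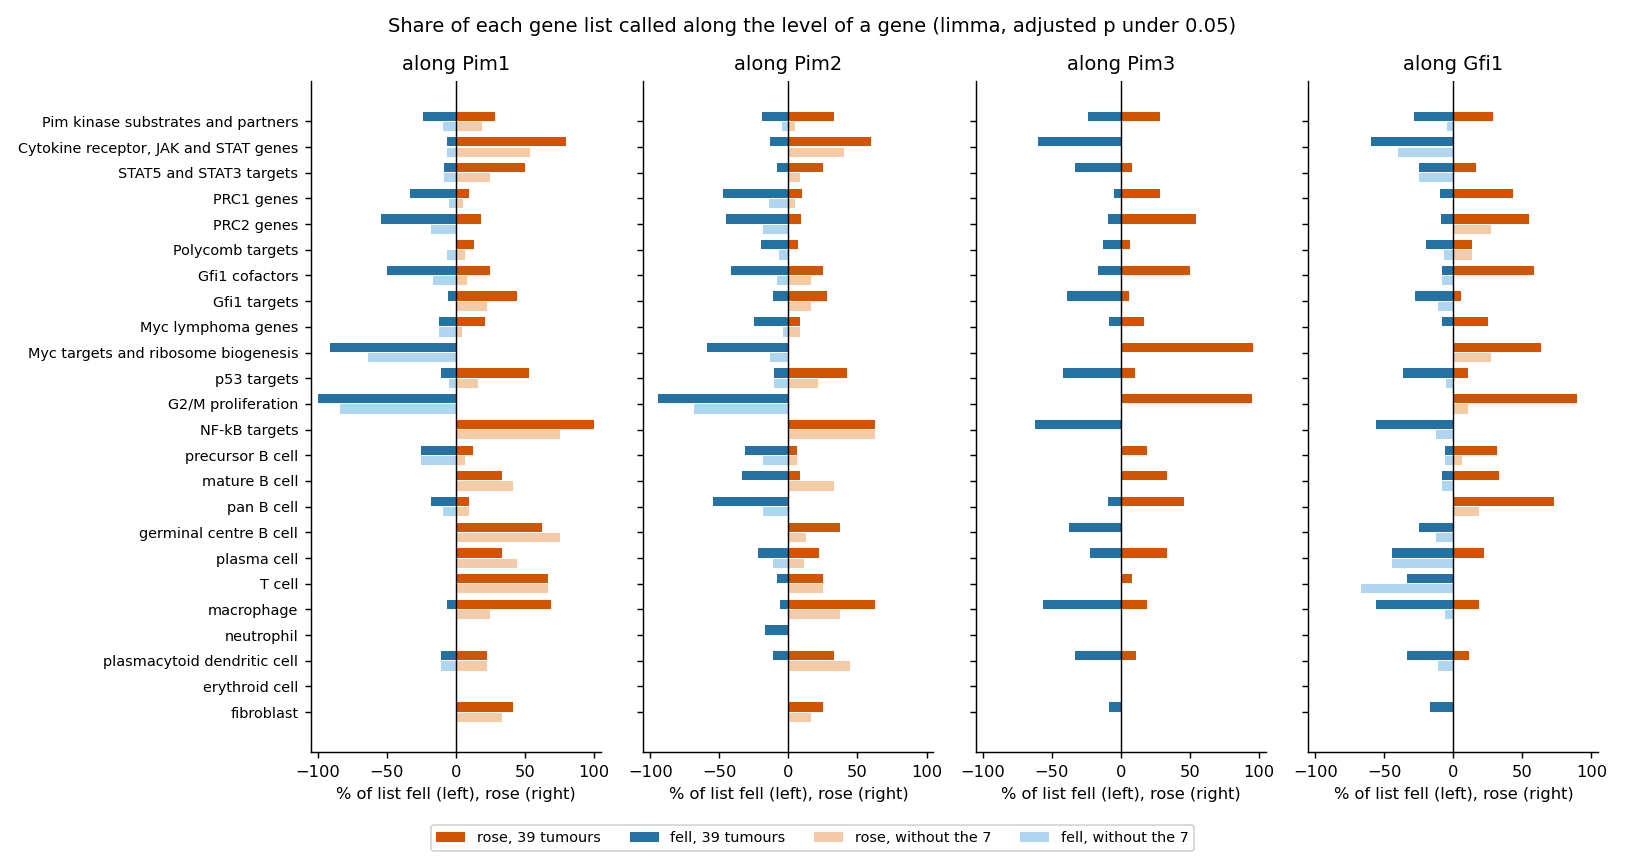
Share of the measured genes of each list (rows) that rose (to the right, in %) or fell (to the left, in %) along the level of Pim1, Pim2, Pim3 and Gfi1. Dark bars are fits of all 39 tumours and pale bars fits without the 7 that stood apart. All 16 NF-kB targets rose and all 19 G2/M genes fell along Pim1, the mirror image along Pim3 has no pale bars, and Gfi1 runs against the T cell list.

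No gene passed the test along Bmi1. Along its level 0 genes rose and 0 fell (0%) with limma and an adjusted p under 0.05, also without the 7 tumours (0% each), while 1058 and 1352 genes had an unadjusted p under 0.05. None of the 21 genes of the PRC1 list, which also held the neighbour Commd3, of 11 genes of Polycomb repressive complex 2 and of 15 Polycomb targets passed. Cbx8, a PRC1 subunit that reads methylated histone H3, had a slope of -0.12 ± 0.04 (adjusted p = 0.852) and Hoxb4, a Polycomb target, of -0.31 ± 0.09 (adjusted p = 0.852). The highest correlation with any gene above the median level was 0.504 (Fam204a), against 0.848 for Pim1 (Gpr18), 0.925 for Pim2 (Nfkbiz), 0.852 for Pim3 (Kansl2) and 0.927 for Gfi1 (Trib2). The values for Pim2 and Gfi1 span their separate clusters. Without the 7 tumours the highest for Bmi1 was 0.581, with its neighbour Commd3. It was then 0.814 for Pim1, 0.853 for Pim2, 0.725 for Pim3 and 0.805 for Gfi1.

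Neither gene of the locus that Bmi1 is known to silence showed a relation that passed. With Cdkn2a Bmi1 gave r = 0.0349 and rho = 0.139 (permutation p = 0.84 and 0.4, n = 39) and with Cdkn2b r = -0.0661 and rho = 0.182 (p = 0.69 and 0.27). The annotation does not say which of the products of Cdkn2a its probe set reads. In tumour 11, highest in Bmi1, Cdkn2a was at 5.05 and Cdkn2b at 5.22, the lowest Cdkn2b of all tumours. In tumour 37 they were at 7.10 and 5.54, near the Cdkn2a median of 7.49. In tumour 13, lowest in Bmi1, Cdkn2a was also low, at 4.48.

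The measured genes beside Bmi1 on chromosome 2 were read for the same tumours. Commd3, directly before it, was second highest in tumour 11 (10.38, median 9.45) and at 9.66 in tumour 37. Spag6, directly after it, a gene of the sperm flagellum, was at 4.79 in tumour 11, second to 5.67 in tumour 27, and at 2.72 in tumour 37 around a median of 2.65. Of the genes farther out, Mllt10 at 9.16 (second lowest), Dnajc1 at 8.37 and Pip4k2a at 8.82 lay below their medians in tumour 11. Carlr, a dim gene after Spag6, was at 2.94 there, the 5th highest level, around a median of 2.77. In tumour 37 Commd3 was 13th and Spag6 17th from the highest. The chromosome 2 score, the mean log2 deviation of the other genes on chromosome 2 above the median level, was -0.03 in both tumours. Neither DNA copy number nor insertions were measured here.

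**Figure D4:**
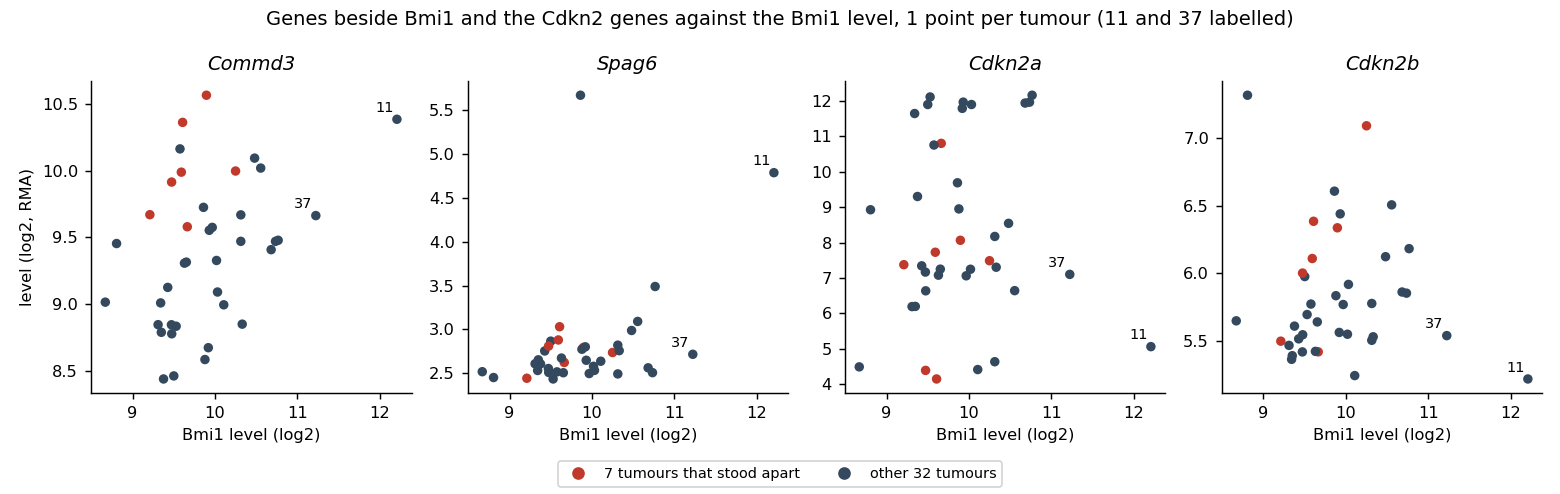
Levels (log2, vertical axes) of Commd3 and Spag6, the genes beside Bmi1, and of Cdkn2a and Cdkn2b against the Bmi1 level (log2, horizontal axes), 1 point per tumour, with the 7 tumours that stood apart in red and tumours 11 and 37 labelled. Tumour 11 is second highest for both neighbours and lowest for Cdkn2b, and Bmi1 and Cdkn2a show little slope (r = 0.0349).

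The mean deviation of the other genes on its chromosome was set against each member. Gfi1 rose with the score of 594 chromosome 5 genes in the 31 tumours of its larger cluster (r = 0.509, rho = 0.475, adjusted p = 0.014 and 0.035). Leaving out the 7 took only tumour 2 from that cluster (n = 30). Then r was 0.469 (adjusted p = 0.034) but rho, at 0.428, did not pass (adjusted p = 0.081). Pim3 rose with the score of 354 chromosome 15 genes in the 29 tumours outside a separate high cluster of that score (r = 0.505, adjusted p = 0.016, rho = 0.422 with an adjusted p of 0.072), but r was 0.246 (adjusted p = 0.369) without the 7. The 10 tumours with the highest chromosome 15 scores are not part of that value, which says nothing of a gained chromosome. The endogenous Myc gene lies on chromosome 15 as well. Pim1 with chromosome 17 (r = 0.260, adjusted p = 0.2), Pim2 with the X chromosome in 32 tumours (r = 0.113, adjusted p = 0.61) and Bmi1 with chromosome 2 (r = -0.222, adjusted p = 0.26) did not pass.

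Single neighbours added detail. Glmn, 2 measured genes before Gfi1 and a regulator of cullin ubiquitin ligases, rose along Gfi1 by 0.36 ± 0.05 (adjusted p = 2.7e-06, and by 0.23 ± 0.05 without the 7 with an adjusted p of 0.0133). Evi5, the gene next to Gfi1 and itself known as a site of viral insertion, had a slope of -0.18 ± 0.10 (adjusted p = 0.191). Dipk1a, 3 genes after Gfi1, fell by 0.39 ± 0.10 (adjusted p = 0.00217, slope -0.35 ± 0.10 without the 7 with an adjusted p of 0.0397). The genes around Gfi1 thus did not move as a block. Zbed4, 3 genes before Pim3, rose along it by 0.56 ± 0.08 (adjusted p = 3.2e-06), and its slope without the 7 was 0.22 ± 0.07 (adjusted p = 0.354).

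**Figure D5:**
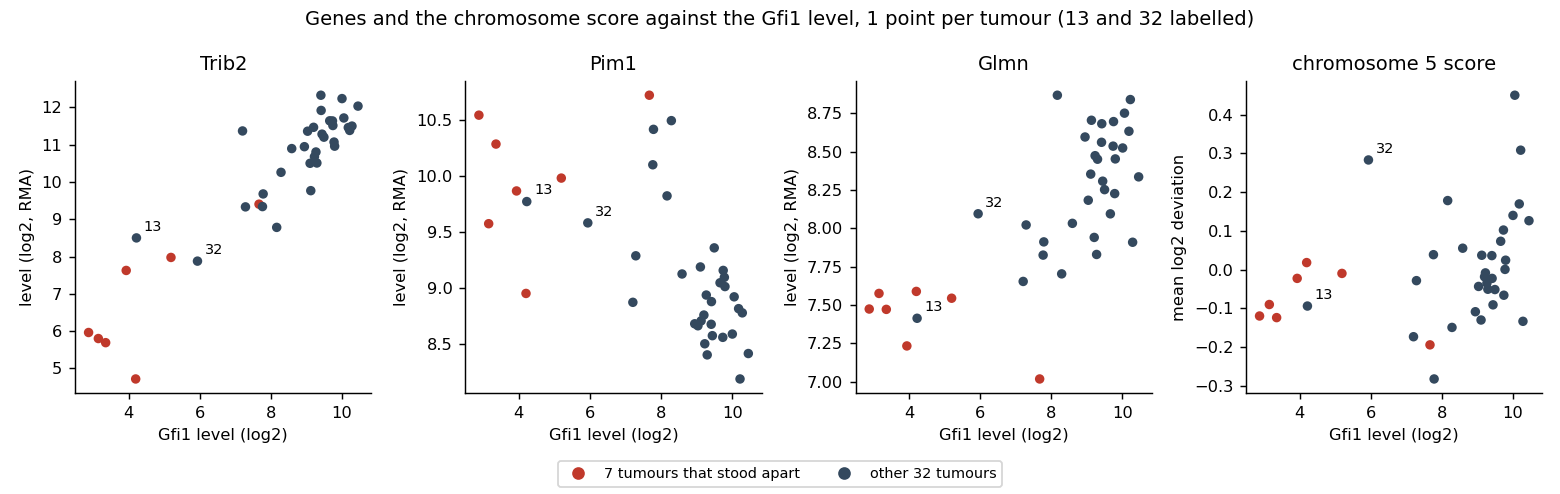
Levels (log2) of Trib2, Pim1 and Glmn and the chromosome 5 score (mean log2 deviation) on the vertical axes against the Gfi1 level (log2, horizontal axes), 1 point per tumour, with the 7 tumours that stood apart in red. Trib2 rises with Gfi1 (r = 0.927) and Pim1 declines with it. Tumours 13 and 32 (labelled) have low Gfi1 at 4.22 and 5.94 and are not among the 7. The pan B cell score was 0.31 in tumour 13 but -0.92 in tumour 32, close to the limit of -1.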

How the data were processed

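Per the submitters' processing notes, the authors used RMA and the affy package, and the deposited values are log2 levels. The sources used here do not give versions, filters or scan batches. RMA normalizes quantiles across arrays, which hides any change in total RNA and compresses dim genes. Genes were named through the platform annotation: 34958 probe sets had 1 gene, 932 several and 9211 none listed, and 34754 matched GRCm38.p6 by Entrez identifier. Apart from picking the level of a gene, splitting genes at the median level and calling some dim, probe set levels were not compared. Precision is limited by the number of arrays.

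The members, gene lists, tests and named genes were chosen with earlier results of these data known. Named genes are the members, Myc, Cdkn2a and Cdkn2b, the 6 largest slopes each way in each fit, the 5 genes of highest r, up to 4 called genes of each role list and the 3 neighbours on each side. Prdm1, Cd79a, Cdkn1a along Gfi1 and a few other list members were chosen after their values were seen. The lists hold 377 entries, 347 of them measured, and a score is the mean deviation from each gene's mean.

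Pearson and Spearman coefficients were each given a 2-sided permutation test (100000 draws) and adjusted by Benjamini-Hochberg over the 22 relations. If a mixture of 2 components (mclust 6.1.1) raised the BIC by more than 10 and its smaller part held 3 tumours or more, the larger cluster was used. Each relation was repeated without the 2 tumours farthest from the median. Fits used limma 3.58.1 in R 4.3.3 (lmFit, eBayes with trend) on 18193 genes, were tested on simulated data, and took a threshold of 0.05. Alternatives were the mean of all probe sets, omission of tumours, cell and G2/M scores as covariates, centred arrays, genes above the median level and no trend.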

Additional observations from a re-analysis of the deposited data

How the results depend on the processing

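The number of genes called along Pim1, 6468 in all, was 2582 without the 7 tumours that stood apart, 3275 without tumours 2, 6 and 8, 8 with the scores of other cells (T cell, macrophage, erythroid, fibroblast) as covariates and 24 with the G2/M score. Along Pim2 (5796) it was 2017 without the 7, 1670 with the cell scores, 2053 with the G2/M score and 3205 within the larger Pim2 cluster. Along Pim3 (5724) it was 5, 289 without tumours 2, 6 and 8, 3074 with the cell scores and 252 with the G2/M score. Along Gfi1 (5982) it was 1009 without the 7, 3206 with the cell scores, 2759 with the G2/M score and 3572 within the larger Gfi1 cluster. Along Bmi1 it was 0 in each of these, also without tumours 11 and 37. The fits within a cluster and without tumours 11 and 37 were chosen after seeing the data. The mean of all probe sets, centred arrays, genes above the median level and no trend kept each count within 1.5 times.

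Of the relations, Pim2 with Myc passed with the mean of all probe sets (r = -0.429, adjusted p = 0.0491), but r was the same and only the permutation draws and the adjustment over the relations differed. By rho, the relations of Gfi1 with Pim1, Myc and chromosome 5 did not pass without the 7 (adjusted p = 0.081 each). For these relations that omission took only tumour 2 from the larger Gfi1 cluster (n = 30). Pim1 with chromosome 17 passed for r without the 7 (0.461, adjusted p = 0.0341) but not for rho (0.314, adjusted p = 0.25). Pim1 with Pim3 no longer passed without the 7 (-0.150), without tumours 2, 6 and 8 (-0.290) or with the cell scores (-0.393). Pim3 with chromosome 15 did not pass without the 7 (0.246), without tumours 2, 6 and 8 (0.376), with the cell scores (0.508) or on centred arrays (0.410). With the cell scores Pim1 with Gfi1 (-0.317), Pim1 with Myc (-0.409) and Gfi1 with chromosome 5 (0.413) did not pass either, and Gfi1 with Myc changed sign (-0.00511). Within the larger Gfi1 cluster the slopes of Ms4a1 (-0.51) and B3gnt5 (-0.15) changed sign and did not pass. The causes were not tested. Fewer tumours also give less power, and values near the array's background limit what dim genes such as Spag6 can show. No paired analysis was possible because all tumours form 1 group.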

Other observations

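The 11 genes of Polycomb repressive complex 2 were looked at after the values were known. Along Pim1 2 rose and 6 fell, along Pim2 1 rose and 5 fell, and along Pim3 and along Gfi1 6 rose and 1 fell. Of all genes, 15.4% to 17.4% rose and 15.6% to 18.2% fell in these fits. With the G2/M score 0 of the 11 were called along Pim1 and Pim3, 4 fell along Pim2, and 4 rose and 1 fell along Gfi1. The shares of all genes called there were 0.132%, 1.39%, 11.3% and 15.2%. With the cell scores 0 of the 11 were called along Pim1 (0.044% of all genes) and 4 fell along Pim2 (9.18%). Along Pim3 (16.9%) 2 rose and 1 fell, and along Gfi1 (17.6%) 4 rose and 1 fell. Without the 7 tumours that stood apart 2 fell along Pim1 and 2 along Pim2, 0 moved along Pim3 and 3 rose along Gfi1. Ezh2, its methyltransferase, rose along Gfi1 by 0.50 ± 0.07 (log2 per SD, SE, limma adjusted p = 2.72e-06, n = 39) and fell along Pim1 by 0.50 ± 0.07 and along Pim2 by 0.51 ± 0.07. Without the 7 the slopes of Ezh2 were 0.16 ± 0.05 along Gfi1 (adjusted p = 0.0497), -0.18 ± 0.05 along Pim1, -0.23 ± 0.04 along Pim2 and -0.01 ± 0.06 along Pim3 (adjusted p = 0.97). Phc1, a PRC1 subunit, fell along Pim2 by 0.66 ± 0.07 (without the 7 by 0.27 ± 0.07). Of 19 G2/M genes 19 fell along Pim1 and 18 along Pim2, and 17 rose along Gfi1, where 2 rose without the 7.

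Tumour 13 had the lowest Bmi1 (8.67) and, outside the 7, the lowest Gfi1 (4.22), with a pan B cell score of 0.31. Tumour 37 had the second highest Bmi1 (11.23), Gfi1 (10.29) and Myc (12.54). Tumour 18 had the second lowest Bmi1 (8.81), the third highest Pim1 (10.49), the highest germinal centre score (4.15) and the highest Cdkn2b (7.32).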
